A study of Mus musculus with 12 samples.

Results

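The keratins induced in wounded or activated epidermis (Krt6a, Krt6b, Krt16 and Krt17) and those typical of simple epithelia (Krt7, Krt8, Krt18 and Krt19) were followed on 12 Affymetrix mouse arrays. Every probe set that the platform annotation gives to 1 of these 8 genes was taken, which made 13 probe sets of 22626 that were not controls, or 8 genes of 12393. Krt6a and Krt8 had 3 probe sets each, Krt17 had 2 and the other 5 genes had 1 each. A further probe set annotated to both Krt17 and Krt14 was not counted, and it read between 5.31 and 6.10 on all arrays. The samples were primary keratinocyte cultures of newborn mice and whole skin. Of the cultures, 2 carried the strain label C57 DBA FVB mixed and 3 the label FVB. Newborn skin (n = 2) was FVB, and skin of mice 30 days old (n = 5) was C57 DBA FVB mixed. The labels name no mutation, transgene or treatment. Each culture combined the cells of 5 newborn mice of 1 genotype, grown without passage in medium low in calcium for up to 3 days, so single mice cannot be seen in it. All values are log2 expression values made by RMA, and all differences are differences of such values.

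Keratins are the intermediate filament proteins of epithelial cells and assemble only as pairs of a type II and a type I chain. Krt6a, Krt6b, Krt7 and Krt8 are type II chains, and Krt16, Krt17, Krt18 and Krt19 are type I chains. Intact epidermis between the follicles relies on Krt5 and Krt14 in its basal layer and on Krt1 and Krt10 above it. Keratinocytes at a wound edge switch on Krt6, Krt16 and Krt17, which resting skin makes in the hair follicle, in nail and in footpad epidermis. Krt8 and Krt18 are the first keratins of the embryo and persist in simple epithelia such as liver and gut. Krt7 and Krt19 belong to ducts and glands, Merkel cells of the skin make Krt8, Krt18 and Krt20, and Krt19 marks the bulge of the mouse hair follicle. In the RefSeq annotation of GRCm38.p6 the type II genes lie on chromosome 15 and the type I genes on chromosome 11, with the exception of Krt18, which lies on chromosome 15. No other coding gene stands between Krt6a and Krt6b, between Krt16 and Krt17, or between Krt8 and Krt18. Krt6a also neighbours Krt5, Krt16 neighbours Krt14 and Krt19 neighbours Krt15.

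The labels put C57 DBA FVB mixed on all 30-day skin and FVB on all newborn skin, so that strain and age cannot be told apart within skin. Culture was therefore compared with skin as a whole, with equal weight for each of the 4 groups, and again within each strain label. Separate animals are not stated for the skin samples, so the p-values reflect variation among samples that could be technical only. Replicate 1 of 30-day skin stood apart. The actin control at the 3′ end exceeded that at the 5′ end by 1.74 on this array. That gap was 0.67 to 0.82 on the remaining 4 arrays of 30-day skin, 0.99 and 1.14 for newborn skin and 0.21 to 0.74 for cultures. In 4 pairs of arrays of the same group (both mixed-strain cultures, both newborn skins, and 30-day replicates 2 with 3 and 4 with 5) the SD of the difference over probe sets was 0.158 to 0.203, against 0.226 to 0.416 in the other 11 such pairs. Calls on the 13 probe sets that change without that replicate, or when each close pair counts as 1 sample, are given with their values. The averaging of close pairs left 1 array each of mixed-strain culture and newborn skin, and 4 residual degrees of freedom. Fewer of all probe sets then passed in every comparison, so a call lost there does not set a gene apart. Without replicate 1 of 30-day skin more of all probe sets passed in every comparison, so a call gained there does not set a gene apart. In bulk samples fewer cells of a type and less RNA per cell cannot be told apart.

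Cultures held more RNA of 7 of these 8 keratins than skin did. Krt16 showed the largest difference among the 13 probe sets, 4.25 ± 0.16 (SE) or 19.0-fold, followed by Krt6a with 2.52 to 3.21 over its 3 probe sets, Krt7 with 2.66 ± 0.09 and Krt6b with 1.91 ± 0.10. Krt18 rose by 1.59 ± 0.20, Krt17 by 0.56 and 1.10, and Krt8 by 0.74 to 0.997. Krt19 did not pass the test, with a difference of -0.06 ± 0.11 (adjusted p = 0.685). In all, 12 of 13 probe sets were higher in culture and 0 lower, where 26.3% of all probe sets were higher and 19.6% lower. The median difference was 1.59 over the 13 probe sets and 0.03 over all probe sets. Every array of culture lay above every array of skin for 11 of the 13, which held for 14.6% of all probe sets. The 2 exceptions were Krt19 and Krt6b. Within FVB, 12 of 13 were higher and 0 lower (19.6% and 14.8% of all probe sets), and 12 had separate arrays (32.8% of all). Within the mixed strain, 11 were higher and 0 lower (21.4% and 16.2% of all), and 12 had separate arrays (27.6% of all).

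**Figure D1:**
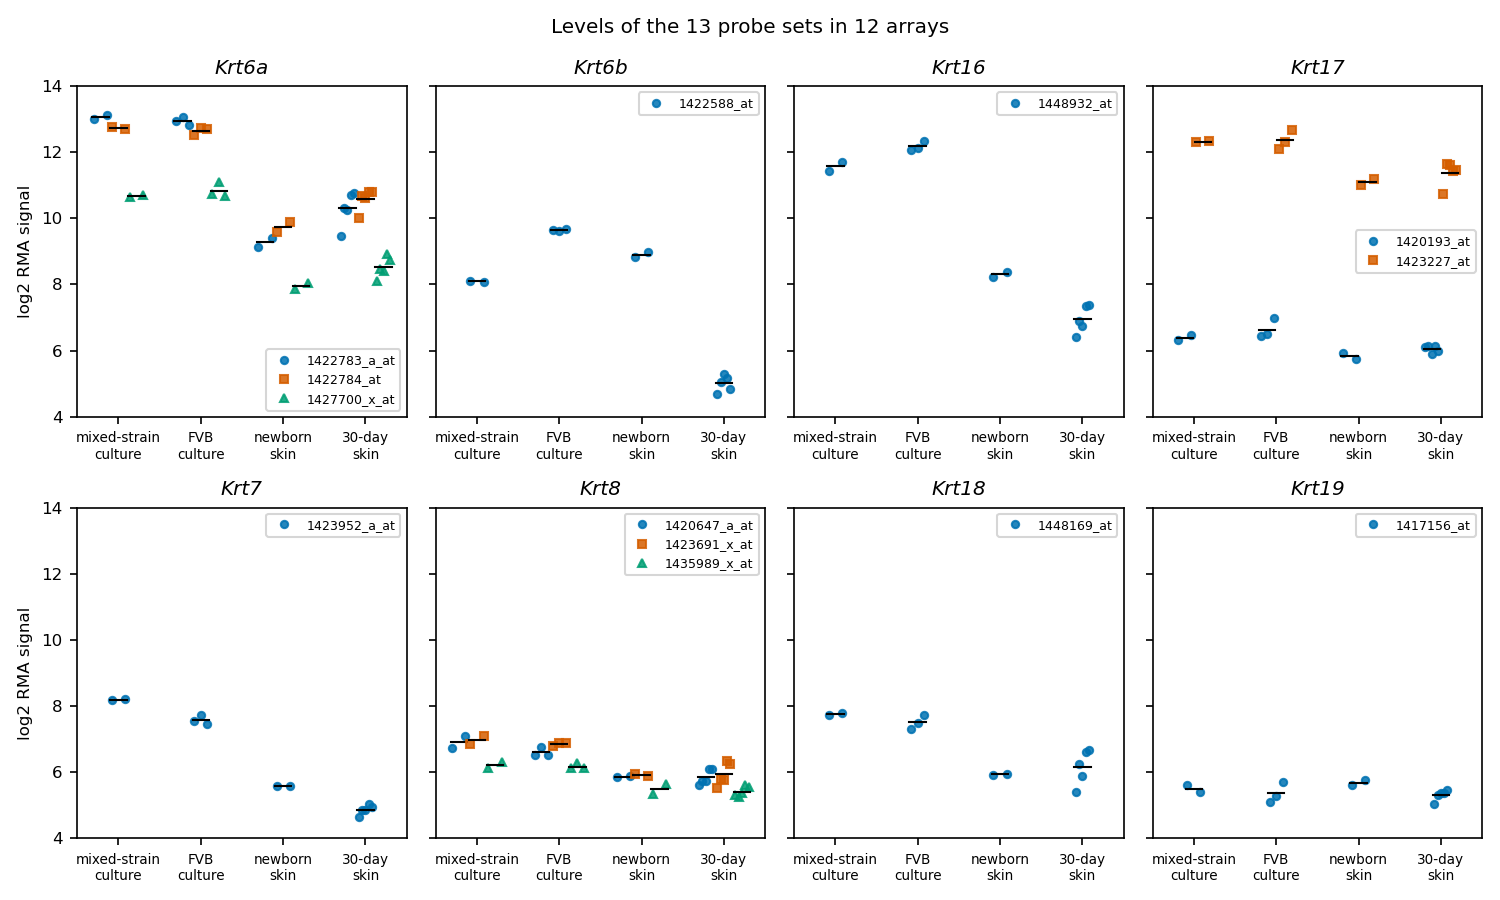
Log2 expression values (vertical axes) of the 13 probe sets in mixed-strain cultures (n = 2), FVB cultures (n = 3), newborn skin (n = 2) and 30-day skin (n = 5), with a point per array and a bar at each group mean. Krt6b falls to between 4.69 and 5.28 in 30-day skin and lies above 8 in every other group, whereas Krt6a falls lowest in newborn skin and Krt19 stays between 5.05 and 5.76.

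Krt6a encodes the main inducible type II keratin of the wound edge. Its probe set 1422784_at read 12.75 and 12.70 in mixed-strain cultures and 12.53, 12.73 and 12.70 in FVB cultures. It read 9.60 and 9.88 in newborn skin and 10.02, 10.68, 10.61, 10.79 and 10.79 in 30-day skin. All 5 cultures were high and close together, both newborn skins were lowest, and 30-day skin lay between them with no overlap. Probe set 1422783_a_at read 12.81 to 13.12 in cultures, 9.12 and 9.42 in newborn skin and 9.48 to 10.76 in 30-day skin. The x-type probe set 1427700_x_at, whose probes may match more than 1 transcript, read 10.65 to 11.09, 7.87 and 8.04, and 8.12 to 8.92 in the same order. The 3 probe sets of Krt6a followed each other over the 12 arrays, with r between 0.99 and 0.997, so their calls are not independent. Within FVB, culture exceeded newborn skin by 2.88 to 3.67 over the 3 probe sets, with adjusted p of 2.78e-07 at most. Within the mixed strain, culture exceeded 30-day skin by 2.15 to 2.76, with adjusted p of 1.8e-06 at most. The difference between those strain-matched differences was 0.72 to 0.91 and did not pass (adjusted p = 0.0999 to 0.187). Without replicate 1 of 30-day skin it passed for all 3 probe sets (adjusted p = 0.00174 to 0.0228). The calls over all 22626 probe sets then rose from 871 positive and 1047 negative to 1334 and 1494.

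Krt6b is the second inducible Krt6 gene of the mouse and the direct neighbour of Krt6a, and it followed another pattern. It read 8.10 and 8.09 in mixed-strain cultures, 9.65, 9.61 and 9.66 in the FVB cultures, 8.82 and 8.99 in newborn skin, and 4.69, 5.05, 5.28, 5.18 and 4.86 in 30-day skin. The groups did not overlap, and the order from low to high was 30-day skin, mixed-strain culture, newborn skin and FVB culture. Each step of that order passed the test, with 3.08 between the first pair (adjusted p = 1.47e-09), 0.81 between mixed-strain culture and newborn skin (adjusted p = 0.00184), and 0.73 between newborn skin and FVB culture (adjusted p = 0.00191). Mixed-strain cultures thus lay below newborn skin. The excess of culture was larger in the mixed strain against 30-day skin than in FVB against newborn skin by 2.35 ± 0.21 (adjusted p = 1.11e-05). It was 1 of 2 such interaction calls among the 13 probe sets, both negative, where 3.85% of all probe sets were called positive and 4.63% negative. In that test donor age, skin age and strain all enter. The step from newborn skin to FVB culture missed the threshold when arrays were centred on epithelial genes (0.35, adjusted p = 0.0521), and it turned to -0.25 when they were centred on Krt5 and Krt14. Over the 12 arrays Krt6b followed the 3 probe sets of Krt6a with r of 0.518 to 0.593 only.

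Krt16 is the type I chain that pairs with Krt6. It read 11.44 and 11.71 in mixed-strain cultures, 12.08, 12.13 and 12.35 in the FVB cultures, 8.24 and 8.37 in newborn skin, and 6.41, 6.89, 6.76, 7.34 and 7.39 in 30-day skin. No array of culture came near skin, and newborn skin lay above all 30-day samples. The excess of culture was 3.89 ± 0.24 within FVB (adjusted p = 2.62e-08) and 4.62 ± 0.22 within the mixed strain (adjusted p = 1.87e-09). The corresponding folds were 14.8 and 24.5. The difference between them did not pass (-0.73 ± 0.32, adjusted p = 0.207), but it did with epithelial centring (-1.08, adjusted p = 0.0157).

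Krt17 is a type I keratin of the hair follicle and of activated epidermis, and it is the neighbour of Krt16. Its probe set 1423227_at read 12.30 and 12.33 in mixed-strain cultures, 12.10, 12.32 and 12.66 in the FVB cultures, 11.02 and 11.20 in newborn skin, and 10.74, 11.63, 11.61, 11.42 and 11.45 in 30-day skin. Cultures and skin did not overlap, but skin was itself high for this probe set. The difference was 1.10 ± 0.16 (adjusted p = 4.85e-05), or 2.14-fold. The second probe set, 1420193_at, read 6.31 to 6.97 in cultures and 5.76 to 6.15 in skin, near the array medians of 5.86 to 6.01, and gave 0.56 ± 0.10 (adjusted p = 0.000441). Within the mixed strain the second probe set did not pass (0.34, adjusted p = 0.0775), and the first passed with 0.95 ± 0.21 (adjusted p = 0.00268) but not with close arrays averaged (adjusted p = 0.0549). Over the arrays the pair had r of 0.828.

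For the simple epithelial keratins, promoter sequence was found for Krt7, Krt8 and Krt18 in RefSeq's GRCm38.p6 annotation, and the 3 are shown because these genes were all higher in culture on every comparison with skin. Each runs from 250 bases before to 50 after the annotated start, in the direction of the gene, at chr15:101412153-101412452 (plus strand) for Krt7, chr15:102004293-102004592 (minus strand) for Krt8 and chr15:102027966-102028265 (plus strand) for Krt18. Capitals mark matches to a GC box (GGGCGG) in Krt7 and to a TATA box (TATAAA) in Krt8, on either strand.
Krt7: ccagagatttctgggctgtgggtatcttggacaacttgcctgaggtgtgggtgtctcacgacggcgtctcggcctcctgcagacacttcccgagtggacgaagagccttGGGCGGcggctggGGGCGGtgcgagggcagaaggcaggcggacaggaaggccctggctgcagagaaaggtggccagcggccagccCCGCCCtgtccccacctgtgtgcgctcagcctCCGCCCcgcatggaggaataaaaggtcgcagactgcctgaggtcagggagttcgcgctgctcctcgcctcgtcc
Krt8: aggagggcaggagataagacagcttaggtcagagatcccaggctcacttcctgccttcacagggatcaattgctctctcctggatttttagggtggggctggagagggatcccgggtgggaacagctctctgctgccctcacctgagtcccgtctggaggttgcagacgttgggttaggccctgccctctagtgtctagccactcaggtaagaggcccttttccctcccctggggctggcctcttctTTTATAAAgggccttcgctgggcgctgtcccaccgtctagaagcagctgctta
Krt18: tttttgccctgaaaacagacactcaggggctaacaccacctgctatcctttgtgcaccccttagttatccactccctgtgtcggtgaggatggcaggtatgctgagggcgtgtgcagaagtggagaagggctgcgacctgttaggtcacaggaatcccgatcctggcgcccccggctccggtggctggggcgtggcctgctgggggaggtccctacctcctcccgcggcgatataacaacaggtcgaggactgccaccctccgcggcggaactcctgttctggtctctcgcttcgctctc
The Krt7 window held 4 GC boxes, which begin 141, 128, 56 and 24 bases before the start, whereas neither Krt8 nor Krt18 held any. The Krt8 window held TATAAA on both strands in 1 overlapping stretch at the annotated start. None of the 3 held an AP-1 motif (TGANTCA) or a GLI core (TGGGTGG) on either strand. Among 32851 promoters of the same length, 35.7% held a GC box, 13.6% a TATA box, 7.81% an AP-1 motif and 9.3% a GLI core. G and C made up 199, 174 and 184 of the 300 bases in Krt7, Krt8 and Krt18. These are matches of letters only.

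Krt7, a type II keratin of ducts and glands, read 8.17 and 8.21 in mixed-strain cultures and 7.56, 7.73 and 7.44 in FVB cultures. It read 5.59 in both newborn skins and 4.64, 4.85, 4.85, 5.04 and 4.94 in 30-day skin. The 4 groups did not overlap, and each step of their order passed. All skin values were below the array medians, where RMA carries no detection call, so the size of the difference is less certain than its direction. Within FVB, culture exceeded newborn skin by 1.99 ± 0.13 (adjusted p = 3.83e-08). The excess over 30-day skin within the mixed strain was 3.33 ± 0.12 (adjusted p = 9.51e-11). These differed by 1.34 ± 0.17 (adjusted p = 0.000251), a difference that missed the threshold with close arrays averaged (adjusted p = 0.0553).

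Krt8 and Krt18 form the filament pair of simple epithelia. Krt18 read 7.74 and 7.79 in mixed-strain cultures, 7.31, 7.49 and 7.72 in the FVB cultures, 5.92 and 5.94 in newborn skin, and 5.39, 6.25, 5.88, 6.62 and 6.66 in 30-day skin. Cultures lay above all skin, and newborn skin fell inside the wide range of 30-day skin. Krt18 was 1.57 ± 0.29 higher in culture within FVB (adjusted p = 0.000799) and 1.60 ± 0.27 higher within the mixed strain (adjusted p = 0.000307). The 3 probe sets of Krt8 read near the array medians in skin. Probe set 1420647_a_at read 6.73 and 7.08 in mixed-strain cultures, 6.51, 6.77 and 6.51 in the FVB cultures, 5.85 and 5.89 in newborn skin, and 5.599, 5.73, 5.74, 6.09 and 6.11 in 30-day skin. The others read 6.81 to 7.10 and 6.12 to 6.30 in cultures and 5.51 to 6.34 and 5.25 to 5.63 in skin. All 3 were higher in culture within FVB, by 0.69 to 0.94, and within the mixed strain, by 0.80 to 1.05. Within FVB, probe sets 1420647_a_at and 1435989_x_at lost the call with epithelial centring (0.34 and 0.30, adjusted p = 0.0705 and 0.0898). Over the 12 arrays, which share the step from skin to culture, Krt8 and Krt18 had r of 0.925 to 0.98.

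Krt19, a type I keratin of ducts and of the follicle bulge, read 5.597 and 5.41 in mixed-strain cultures, 5.10, 5.29 and 5.69 in the FVB cultures, 5.61 and 5.76 in newborn skin, and 5.05, 5.32, 5.36, 5.37 and 5.47 in 30-day skin. All 12 values were below the array medians, and no step in the order of the group means passed. Within FVB, the interval of culture minus skin was -0.68 to 0.03, and within the mixed strain it was -0.13 to 0.52. Without replicate 5 of the FVB cultures, Krt19 passed as lower in culture within FVB (-0.49, adjusted p = 0.0203). It also passed there with array weights (-0.40, adjusted p = 0.0296). Centring on epithelial genes (-0.71, adjusted p = 0.00194) or on Krt5 and Krt14 (-1.31, adjusted p = 3.26e-06) gave that call too. These centrings called 10155 and 19437 of all 22626 probe sets lower within FVB. On the deposited scale a change of over 1 lay outside both intervals, although a probe set near background can compress differences. Krt15, the neighbour of Krt19 and likewise a bulge keratin, fell from group means of 10.44 and 10.70 in skin to 5.55 and 5.94 in culture.

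**Figure D2:**
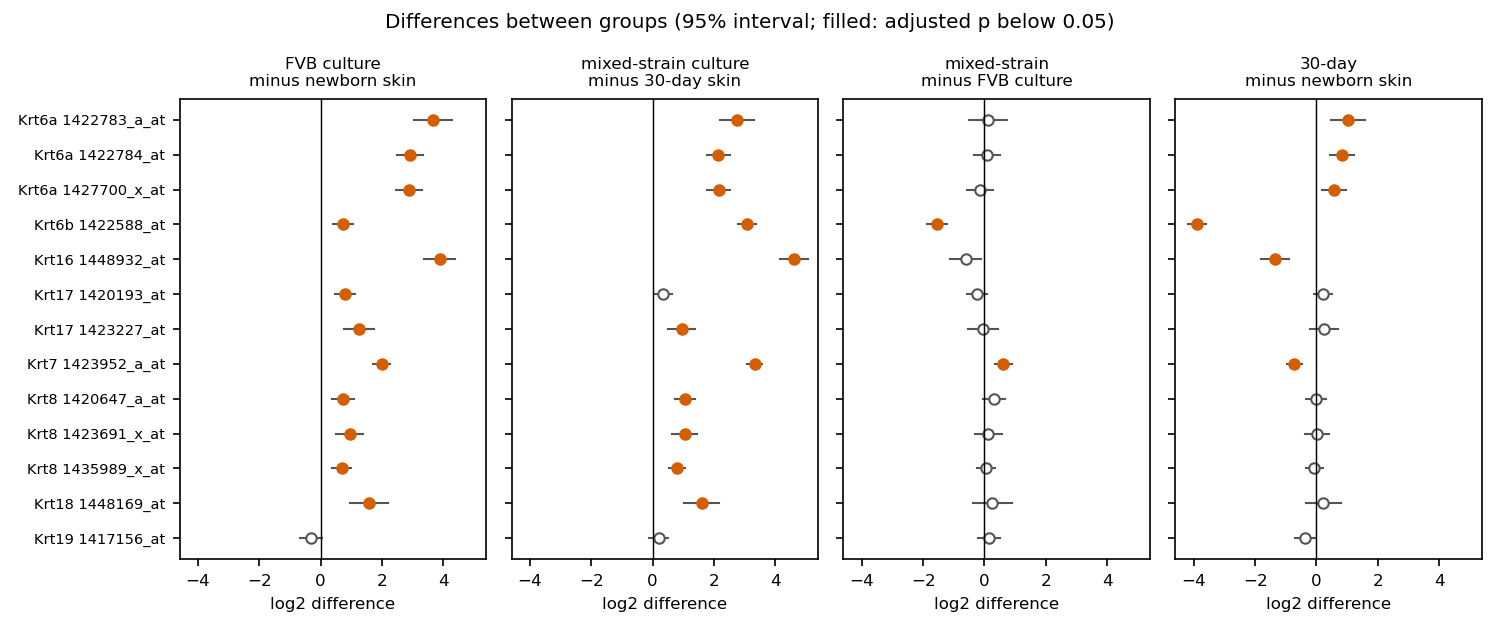
Log2 differences (horizontal axis) of the 13 probe sets in 4 panels, for FVB culture minus newborn skin, mixed-strain culture minus 30-day skin, mixed-strain minus FVB culture and 30-day minus newborn skin, with 95% intervals and filled points where the adjusted p is below 0.05. In the comparisons of culture with skin the points lie to the right of 0 for all but Krt19 in FVB, and Krt6b lies at -1.55 for strain in culture and at -3.90 for age in skin.

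The comparison of strains within culture asked how far the keratins depend on the mice that gave the cells. Krt6b was lower in mixed-strain than in FVB cultures by 1.55 ± 0.15, or 2.92-fold (adjusted p = 5.41e-05), and its arrays did not overlap. Krt7 went the other way and was higher in mixed-strain cultures by 0.62 ± 0.13 (adjusted p = 0.0086). These were the only calls, 1 higher and 1 lower of 13, where 3.91% and 5.3% of all probe sets were called. Separate arrays occurred in 2 probe sets each way, Krt7 and Krt18 against Krt6b and Krt16, where 22% and 24% of all probe sets had them. The Krt7 call was lost without either mixed-strain culture (adjusted p = 0.0845 and 0.0848) and with close arrays averaged (adjusted p = 0.216). Krt16 also had separate arrays and a difference of -0.61 ± 0.24, which did not pass (adjusted p = 0.127). It did pass without replicate 1 of 30-day skin (adjusted p = 0.0332) and when the cultures were fitted alone (adjusted p = 0.0102). For strain, 885 of all probe sets were called higher and 1200 lower. Without that replicate these were 1509 and 1786, and with cultures alone 1468 and 1832. For Krt6a the intervals of the strain difference reached from -0.58 to 0.73 over its 3 probe sets, and for the brighter Krt17 probe set from -0.54 to 0.45. Strain coincided with other features of the cultures. The mean of 6 suprabasal markers was 6.55 and 6.56 in mixed-strain cultures and 7.25 to 7.41 in FVB cultures. Only Krt1 and Krt10 of these markers were called, lower in the mixed strain by 2.29 and 1.18, and the other 4 were not called. The mean of 5 melanocyte markers was 9.25 and 9.39 in mixed-strain cultures and 7.43 to 7.57 in FVB cultures. Whether these have a part in the keratin differences was not tested.

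Skin at 30 days was set against newborn skin to see how the keratins differ with age, with strain changing alongside. The test called 3 probe sets higher and 3 lower of 13, where 6.9% and 10.3% of all probe sets were called. Separate arrays occurred in 3 higher and 4 lower probe sets, against 14.6% and 17.6% of all. The 3 lower ones were different genes, Krt6b, Krt16 and Krt7. Krt6b fell by 3.90 ± 0.14, or 14.9-fold (adjusted p = 8.86e-10), and Krt16 by 1.34 ± 0.22, or 2.54-fold (adjusted p = 0.000803). Krt7 fell by 0.72 ± 0.12 (adjusted p = 0.000766), a call lost with close arrays averaged (adjusted p = 0.0778). The 3 higher ones were all Krt6a, with 1.03 ± 0.26 (adjusted p = 0.0149), 0.84 ± 0.18 (adjusted p = 0.00571) and 0.57 ± 0.18 (adjusted p = 0.0445). The neighbouring genes Krt6a and Krt6b thus differed in opposite directions. The Krt6a calls were all lost without newborn replicate 1 (adjusted p = 0.0947 to 0.272) and with close arrays averaged (adjusted p = 0.239 to 0.469). The call of 1427700_x_at was also lost on leaving out any of the other arrays except FVB culture replicate 4 and 30-day replicate 1. That of 1422783_a_at was lost without newborn replicate 2 as well, at a difference of 1.18. With only the skin groups fitted, 1422783_a_at (adjusted p = 0.0583) and 1427700_x_at (adjusted p = 0.0907) lost their calls. Krt8, Krt17 and Krt18 did not pass, with intervals within -0.39 and 0.81, but the brighter Krt17 probe set did without 30-day replicate 1 (0.42, adjusted p = 0.0405). Without that replicate the calls over all probe sets rose from 1562 higher and 2340 lower to 2319 and 2956. Krt19 had separate arrays and a difference of -0.38 ± 0.15 that did not pass (adjusted p = 0.111). It passed with epithelial centring (-0.60, adjusted p = 0.00638), which called 5471 of all 22626 probe sets lower.

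The size of the culture differences depended on what the arrays were scaled to. The mean of 8 keratinocyte markers was 10.57 to 10.90 in cultures and 9.73 to 9.94 in skin, and that of 7 fibroblast markers was 5.52 to 6.12 in cultures and 10.53 to 11.22 in skin. Centring on 25 epithelial genes moved the median difference of all probe sets from 0.03 to -0.18, and 12 of the 13 were higher in culture while Krt19 was lower (-0.28, adjusted p = 0.039). Centring on Krt5 and Krt14, the basal pair, moved that median to -1.08. All 5 probe sets of Krt6a, Krt6b and Krt16 and those of Krt7 and Krt18 were still higher in culture, which made 7 of 13. Krt19 (-1.17), the dimmer Krt17 probe set (-0.54) and 1 probe set of Krt8 (-0.37) were lower. The other Krt8 probe sets, at -0.22 and -0.11, and the brighter Krt17 probe set, at -0.01, did not pass. Within each strain label Krt17 and Krt8 likewise turned below 0 on that scale, except the brighter Krt17 probe set in FVB. Krt5 and Krt14 were themselves higher in culture by 1.08 and 1.14 as deposited. Krt14 had a mean of 13.439 in FVB cultures, where the highest values of the arrays were 13.438 to 13.442. A probe set at the top of the scale can compress differences, which limits the comparison with the basal pair. As measured over all groups, Krt6a, Krt6b, Krt16, Krt7 and Krt18 differed between culture and skin by more than that pair. Krt17 and Krt8 did not. Within each strain label a larger difference than that of the pair held for Krt6a, Krt16 and Krt7. On that scale Krt18 missed the threshold within FVB (0.59, adjusted p = 0.0524) and within the mixed strain (0.37, adjusted p = 0.167), and Krt6b lay at -0.25 within FVB (adjusted p = 0.134). Over all probe sets the split of higher and lower calls was 5949 and 4427 as deposited, 7351 and 3765 with median centring, 3557 and 8534 with epithelial centring, and 400 and 21015 with centring on Krt5 and Krt14. In 30-day against newborn skin, Krt5 and Krt14 centring called 6 of the 13 higher and 2 lower, beside 11601 higher and 657 lower of all 22626 probe sets, so that this count does not set the keratins apart.

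**Figure D3:**
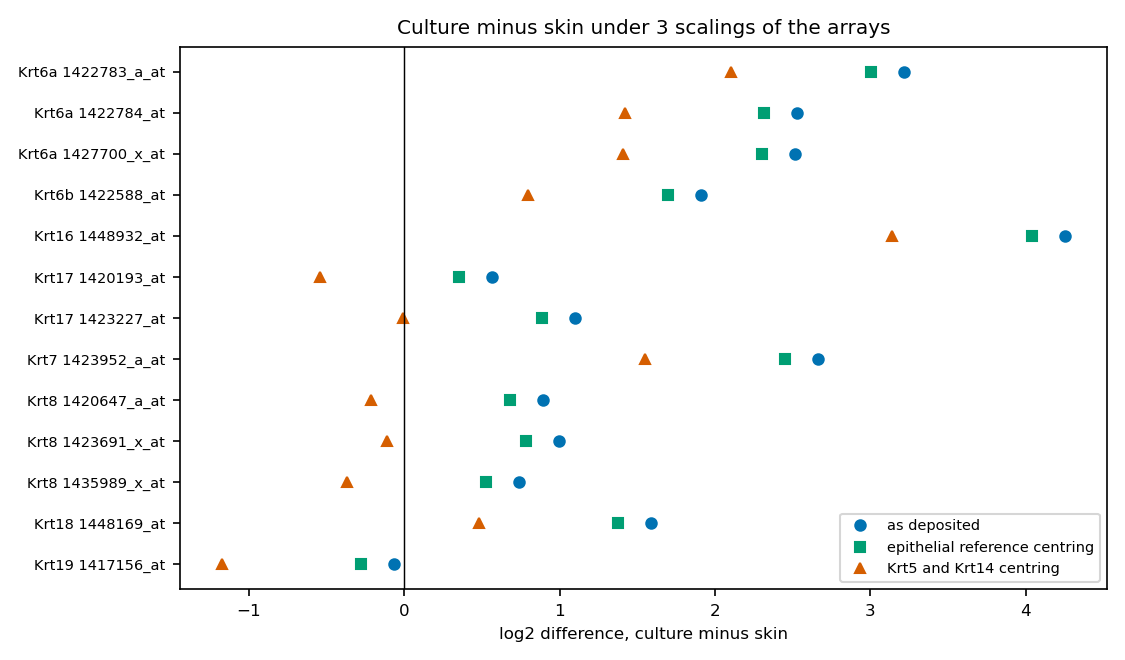
Log2 difference of culture minus skin (horizontal axis) for each of the 13 probe sets as deposited, after centring arrays on epithelial genes, and after centring on Krt5 and Krt14. Krt16, Krt6a, Krt7, Krt6b and Krt18 stay to the right of 0 on these 3 scales, while Krt17 and Krt8 cross to the left of 0 when set against Krt5 and Krt14.

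Markers of other cells that make simple keratins were read on the same arrays. Merkel cells make Krt8, Krt18 and Krt20, and 0 of their 7 measured markers were higher in culture and 2 lower. Krt20 read 4.55 to 4.97 and Atoh1, their defining transcription factor, 5.03 to 5.77 over all 12 arrays, all below the medians. The mean of the 7 markers was 4.80 to 4.91 in cultures, 5.03 in newborn skin and 4.86 to 5.12 in 30-day skin. Mesothelium makes Krt7, Krt8, Krt18 and Krt19, and 2 of its 4 measured markers were higher in culture. Its marker Msln had group means of 5.95 and 5.53 in cultures and 4.48 and 4.53 in skin, whereas Upk3b read 4.54 to 4.91 throughout. Wt1 read 4.10 to 4.45 throughout. Bnc1, the brightest of the 4, had group means of 8.22 and 8.63 in cultures and 7.46 and 8.27 in newborn and 30-day skin. The mean of those 4 was 5.65 to 5.90 in cultures and 5.21 to 5.56 in skin, and its part in the results was not tested. Of 7 measured sweat and mammary gland markers, 0 were higher in culture and 1 lower, and the milk genes Csn2 and Wap read 4.46 to 5.0 and 5.29 to 5.80. Outer root sheath and bulge markers, the follicle cells in which resting skin makes Krt6, Krt16 and Krt17, had means of 5.72 to 6.01 in cultures and 8.18 to 8.57 in skin. Of these 8 markers 7 were lower in culture and 1 higher, Sox9, with group means of 8.34 and 9.07 in cultures and 7.12 and 7.94 in skin. The higher Krt6a, Krt16 and Krt17 values of culture came with a lower mean of those follicle markers. Whether follicle cells have a part in them was not tested.

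The other keratins moved mostly the opposite way. Of 14 on the list, 9 fell and 3 rose in culture, with a median of -1.79. Of all probe sets 19.6% fell and 26.3% rose, the shares beside each list count of culture against skin below. The follicle companion layer keratin Krt75 fell by 5.11, Krt15 by 4.83, Krt77 by 4.61 and the suprabasal keratin Krt10 by 4.28. Krt5 and Krt14 were among the 3 that rose, of which 2 passed with close arrays averaged. Against Krt5 and Krt14 themselves 12 of 14 were lower, as were 21015 of all 22626 probe sets, so that this count does not set them apart. The wound keratins thus rose in culture together with the basal pair while keratins of the suprabasal layers and the follicle fell.

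Genes of the activated keratinocyte moved mostly with the wound keratins. On that list 16 of 22 measured genes rose and 3 fell in culture, with a median of 1.67 against 0.03 over all probe sets. Ptgs2, the inducible prostaglandin synthase, rose by 4.21. The protease inhibitor Serpinb2 rose by 3.89, the matricellular protein Thbs1 by 3.85 and the calprotectin subunit S100a9 by 3.35. Centring on Krt5 and Krt14 left 12 higher and 9 lower, where 400 of all 22626 probe sets were higher and 21015 lower. Averaging the close pairs left 15 higher and 0 lower. Between the culture strains, the cytokine Il1a, an inducer of Krt6 and Krt16 in keratinocytes, was 2.41 higher in the mixed strain, and S100a9 was 1.68 lower.

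Regulators of these keratins showed no single direction. Of 20 measured, 8 rose and 8 fell in culture, with a median of 0.13. Gli1 and Gli2, hedgehog effectors that act on Krt17 in the follicle, fell by 2.10 and 1.56, and the AP-1 subunit Fos fell by 1.59. Myc rose by 1.76. Against Krt5 and Krt14, 1 was higher and 16 were lower, where 400 of all 22626 probe sets were higher and 21015 lower. That count does not set the regulators apart. Averaging the close pairs left 7 higher and 5 lower. Between the culture strains, 0 were higher and 5 lower in the mixed strain, where 3.91% and 5.3% of all probe sets were called. Among the 5 were Klf4, lower by 0.84, and Nfe2l2, an activator of Krt6, Krt16 and Krt17 under oxidative stress, by 0.71. These strain calls were not kept with close arrays averaged, which left 1 mixed-strain array and a median strain difference of -0.25. With Krt5 and Krt14 centring 1 was lower, where 349 of all 22626 probe sets were.

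Other genes of simple epithelia rose in part with Krt7, Krt8 and Krt18. Of 19 measured, 10 rose and 2 fell in culture, with a median of 0.72. Anxa3 rose by 4.05, the secreted glandular protein Wfdc2 by 2.43, and the tight junction proteins Cldn4 and Cldn7 by 2.30 and 2.13. Centring on Krt5 and Krt14 turned that count to 5 higher and 10 lower, where 400 of all 22626 probe sets were higher and 21015 lower. Averaging the close pairs left 10 higher and 0 lower. Filament partners, the plakins, desmosomal and cross-linking proteins that keratins attach to, gave 4 higher and 8 lower of 14, with a median of -0.40, and 6 lower with close arrays averaged. Tgm2 fell by 2.67, the mesenchymal filament protein Vim by 2.53 and the cornified envelope plakin Evpl by 1.55. Dst, whose epithelial form ties keratins to hemidesmosomes, rose by 1.44. Vim was 1.37 higher in mixed-strain than in FVB cultures.

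**Figure D4:**
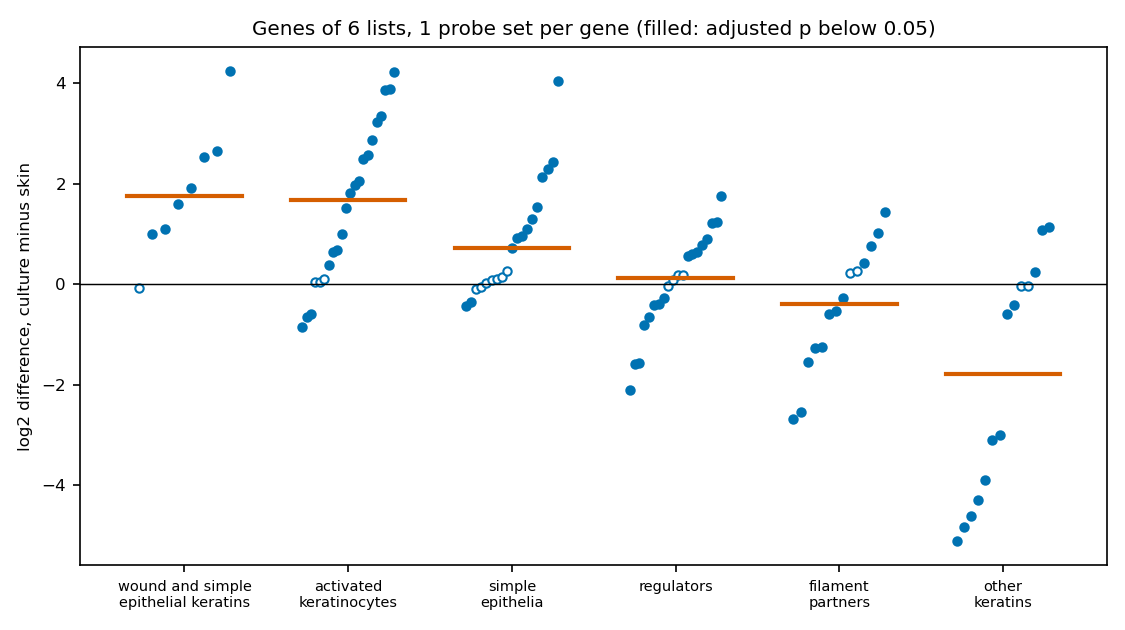
Log2 difference of culture minus skin (vertical axis) for each measured gene of the keratins studied, other keratins, activation genes, simple epithelial genes, regulators and filament partners, with a point per gene, filled where called, and a bar at each list's median. The medians are 1.67 for activation genes and 0.72 for simple epithelial genes, against 0.13 for regulators, -0.40 for partners and -1.79 for other keratins.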

How the data were processed

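RNA from 5 cultures and 7 skin samples was hybridised to 1 array each. The authors deposited log2 values made by RMA, which corrects background, equalises the distributions of arrays and summarises probes, per the submitters' processing notes. No source used here gives its version or a genome build. Values carry no detection call, and the number of arrays limits the precision. Suffixes _x, _s and _a mark probe sets that may match more than 1 transcript or gene. Equalised distributions assume alike RNA pools, which skin and culture do not have.

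Of 22690 probe sets, 64 controls were left out. The rest, 22626, entered 1 limma 3.58.1 fit in R 4.3.3 (lmFit, eBayes, two-sided) with 4 group means and 8 residual degrees of freedom, and p-values were adjusted by Benjamini-Hochberg over all of them, with a threshold of 0.05. Errors of differences are SEs. Intervals are 95% intervals of the moderated fit. The platform annotation gave 1 symbol to 20380 probe sets, several to 691 and none to 1555. Lists use the brightest probe set of each gene. The fit was also run on simulated data with independent noise, which held no close pairs of arrays and no stray array. That run does not bear on these limits.

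Members and lists were chosen with earlier results of these data known, so list counts are descriptions. Named were all members, Krt5 and Krt14, from each list up to 4 genes with the largest called difference between culture and skin and up to 2 from other comparisons, and for each keratin the 3 genes with the highest Pearson r among 5390 with a range of at least 1. The text names part of these. Krt15, Krt20, Msln, Upk3b, Wt1, Bnc1, Atoh1, Csn2 and Wap are named as markers or neighbours.

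Same-numbered samples of different groups showed no clear shared deviation (r of -0.235 to 0.087 in 9 pairs), and the fit has no pairing. Deviations in groups of 2 arrays mirror each other, so pairing is not excluded. Alternatives covered scaling, filters, probe set choice, variance model, array weights, samples in the fit, replicate block, thresholds and each array left out. Averaging of close arrays was added after seeing the data. Promoters came from RefSeq (GRCm38.p6), which matched 3 of 8 genes. Figures were drawn with matplotlib 3.10.9, and tables were made with pandas 2.3.3 and numpy 2.4.6 under Python 3.11.15.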

Additional observations from a re-analysis of the deposited data

Results flagged for a closer look

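The excess of culture over skin was compared between FVB (against newborn skin) and the mixed strain (against 30-day skin). That difference of differences passed for 12 of 39 probe sets and genes, where 3.85% of all probe sets were called positive and 4.63% negative. The listed genes among them were in part chosen by this same difference, so the count is a description and no test. Each value is the FVB difference minus the mixed-strain difference. Where culture was above skin, a negative value means a larger excess in the mixed strain. Among the keratins studied these were Krt6b with -2.35 and Krt7 with -1.34. Among the listed genes they were Krt77 with 3.59, Vim with -2.93, Il1a with -2.55, Ptgs2 with -1.66, S100a9 with 1.18, Gli1 with -1.15, Myc with 0.98, Wfdc2 with -0.72, Nfe2l2 with 0.66 and Klf4 with 0.65. Vim, Gli1, Krt77 and Klf4 were below skin in both strains. Vim differed by -3.998 in FVB and -1.07 in the mixed strain and Gli1 by -2.67 and -1.53, whereas Krt77 differed by -2.82 and -6.41 and Klf4 by -0.48 and -1.12. Strain, skin age and donor age all enter that comparison and cannot be told apart. With close arrays averaged, Krt6b (adjusted p = 0.00489), Krt77 (adjusted p = 0.000363), Vim (adjusted p = 0.00124) and Il1a (adjusted p = 0.00388) still passed, and the others had an adjusted p of 0.0553 or more.

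In 5 of 39 probe sets and genes tested for a stray array in 30-day skin, replicate 1 lay below the other 4 by more than 0.71 of the range. Chance gives about 5% of independent groups, but these all come from the same arrays. Replicate 1 read 10.02 for Krt6a probe set 1422784_at, with the others at 10.61 to 10.79. For Krt17 probe set 1423227_at it read 10.74, with the others at 11.42 to 11.63. It read 7.14 for Gli2 (others 7.298 to 7.33), 10.15 for Krt75 (others 11.01 to 11.33) and 5.63 for Thbs1 (others 6.52 to 6.56). This is the array with the wide actin gap between the 3′ and 5′ probe sets. Without it Krt17 passed as 0.42 higher in 30-day than in newborn skin (adjusted p = 0.0405). More of all probe sets also passed in that comparison without this array.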

How the results depend on the processing

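The counts of called probe sets given here are of 13, higher first, and stand beside those of the report. Leaving out each array in turn gave 12 to 12 higher and 0 to 0 lower in culture against skin, 12 to 12 and 0 to 1 within FVB, 11 to 12 and 0 to 0 within the mixed strain, 0 to 1 and 1 to 2 for strain in culture, 0 to 4 and 3 to 3 for age in skin, and 0 to 3 and 2 to 3 for the difference of the strain-matched differences. Epithelial centring added 1 lower call in culture against skin and 1 within FVB, where it also left 8 of 12 higher calls (Krt6b, Krt17 1420193_at and 2 of Krt8 lost). It gave 5 lower in the difference of differences, beside 4506 of all 22626 probe sets. Centring on Krt5 and Krt14 gave 7 higher and 3 lower in culture against skin, 5 and 1 within FVB, 6 and 3 within the mixed strain, 6 higher for age in skin and 2 higher in the difference of differences. Under it culture minus skin turned to -0.54 and -0.01 for Krt17 and to -0.22, -0.11 and -0.37 for Krt8. Within FVB it turned to -0.25 for Krt6b, -0.19 for Krt17 1420193_at, and -0.25, -0.039 and -0.30 for Krt8. Within the mixed strain it turned to -0.90 and -0.29 for Krt17, -0.18, -0.18 and -0.44 for Krt8 and -1.04 for Krt19. These follow from Krt5 and Krt14 being higher in culture. With that centring 21015 of all 22626 probe sets were lower in culture against skin, 19437 within FVB and 20932 within the mixed strain. The brightest probe set per gene, 8 in all, left 7 higher in each of the 3 comparisons of culture with skin and 1 higher for age in skin. Without _x, _s and _a probe sets, 7 in all, these were 6, 6, 5 and 1, with 0 higher for strain in culture and 1 lower in the difference of differences, by fewer probe sets tested. Array weights gave 1 lower within FVB, 2 lower for strain, and 3 higher and 3 lower in the difference of differences. Over all probe sets they gave 2289 higher and 2673 lower for strain, beside 885 and 1200 without weights. In the difference of differences these were 1759 and 1904, beside 871 and 1047. Fitting only the groups compared gave 2 lower for strain and 1 higher for age. An adjusted p of 0.01 gave 1 higher for age. A log2 difference of at least 1 gave 7 higher within FVB, 0 higher for strain and 1 higher for age. Averaging of close arrays, chosen after seeing the data, left 1 array each of mixed-strain culture and newborn skin. Calls were lost over all probe sets with it, not only among these keratins. For Krt7 the differences were then 0.62 for strain, -0.76 for age and -1.38 in the difference of differences. The cause of these shifts was not tested where none is given.

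The replicate number as a block gave 1 higher for age in skin, without Krt6a 1422783_a_at and 1427700_x_at (adjusted p = 0.0752 and 0.194), and 8 higher within FVB, where Krt6b (0.49, adjusted p = 0.11) and all 3 probe sets of Krt8 (0.42, 0.47 and 0.45, adjusted p = 0.149, 0.134 and 0.105) lost their calls. It gave 3 lower in the difference of differences, Krt16 being added (-1.55, adjusted p = 0.0247). Krt6b within FVB also lost its call with 1 mean for all cultures (0.12, adjusted p = 0.879). In 1 of 12 arrays the best match was another array of its own number, which gives no sign of pairing. Deviations within a group of 2 arrays mirror each other, so this check is weak and cannot exclude pairing. The results for Krt6a, Krt16 and Krt7 in culture against skin kept direction and call under every alternative that kept their probe sets. Values below the array medians (Krt19, Krt7 in skin, Krt6b in 30-day skin) limit the size of differences that these arrays can show.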

Other observations

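Genes other than the 8 keratins were ranked by how closely their log2 values followed each keratin over the 12 arrays, which share the step from skin to culture. For Krt6a these were Patj and Prkcz, both polarity proteins (r = 0.989 each), and Serpinb2 (r = 0.988). Krt16 was followed by the ribosome factor Eif6 (r = 0.996), Maoa (r = 0.992) and Smim3 (r = 0.989), and Krt7 by the chromatin protein Hmga2 (r = 0.997), Tmem43 (r = 0.996) and Aprt (r = 0.994). Hmga2 rose by 1.99 in culture against skin, Maoa by 1.60 and Eif6 by 1.18. Krt17 was followed by Hspbp1 and Ywhag (r = 0.98 each) and by Sfn (r = 0.977). The last is the epithelial 14-3-3 protein, a known partner of Krt17 in keratinocytes, and it rose by 1.02. Krt8 and Krt18 shared the tubulin Tubb6 (r = 0.976 and 0.973).

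Krt6b and Krt19 had other company. Casq2 (r = 0.991), Lxn (r = 0.987) and Epb41l3 (r = 0.984) came nearest to Krt6b, and like it they were called higher in culture against skin with overlapping arrays. No gene followed Krt19 as closely, the nearest being Dipk1b (r = 0.875), Aif1l (r = 0.801) and Cox4i1 (r = 0.798). A ranking by Spearman's rho named mostly other genes. It kept Serpinb2 for Krt6a, Sfn and Hspbp1 for Krt17, Tubb6 and Zfand2a for Krt8, and Dipk1b and Aif1l for Krt19.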
